A study of Mus musculus with 7 samples.

Results

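Enzymes of glycolysis, lactate formation, the pentose phosphate pathway and the glycerol 3-phosphate shuttle, with the glucose transporter gene Slc2a3 and the lactate transporter gene Slc16a3, were followed in vessels of the mouse brain after PDGF-CC. The set lists 36 genes. A gene was measured where the platform annotation gave a probe set that symbol alone, and the brightest such probe set stood for the gene. This held for 30 genes of 22180 with such a probe set, and all 30 were above the filter on dim probe sets described below. Gpi1, Pfkfb1, Aldoa, Eno1, G6pdx and Tkt were not analysed here. The list was drawn up by pathway, with earlier results of these data known.

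The samples were vascular fragments, pieces of small vessels with their endothelial and mural cells, from brains of female mice aged 12 weeks, of strain C57BL/6N by the study design and C57BL/6 by the sample labels. No transgene or deletion is stated. All mice received an injection into the cerebral ventricles, of PDGF-CC in 4 samples and of phosphate-buffered saline (PBS) in 3. The tissue was taken 4 hours later, and each sample was hybridised to 1 array after amplification from 10 ng of total RNA. The labels do not say whether a sample is 1 mouse or a pool, so the spread between samples may in part be technical.

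Glycolysis splits glucose into pyruvate. Its pace is set mainly by hexokinase, phosphofructokinase and pyruvate kinase, and by fructose 2,6-bisphosphate, the strongest activator of phosphofructokinase, which the PFKFB enzymes make and degrade. Brain endothelium is known as a highly glycolytic tissue, and PFKFB3 is known as its driver during vessel sprouting. The pentose phosphate pathway branches off after hexokinase and yields NADPH for antioxidant defence and ribose for nucleotides.

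The genes of the set were close to their PBS levels 4 hours after PDGF-CC, and none passed the test. Values are on the log2 scale, on which a difference of 1 is a doubling. With limma and Benjamini-Hochberg adjustment over 17734 probe sets at a threshold of 0.05, 0 of 30 members were called higher and 0 lower, as were 0% of all probe sets in either direction. The smallest adjusted p of a member was 0.769. The median difference of the members, PDGF-CC minus PBS, was -0.01, and that of all 15582 genes tested was -0.003. Differences ran from -0.57 for Pfkfb3 to +0.26 for Hk2, and 25 of 30 members were within 0.2 of 0, against 85.4% of all genes. Of the members 13 were positive and 17 negative, and 51.6% of all probe sets were negative.

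At an unadjusted p under 0.05, 1 member was higher and 2 were lower. One of the lower genes, Eno2, was above the filter only through its PBS arrays. In the background, 2.63% of probe sets were higher and 3.41% lower at that threshold. In no member did every PDGF-CC array lie above, or every one below, all PBS arrays, which held for 1.80% and 2.50% of probe sets. The 95% confidence interval of the difference lay within 1.2-fold of equality in both directions for 10 members. Among these 10 were Pfkfb4 and Rpe, which held the same value in 6 arrays, and the dim Ldha. Exact repeats, described below, narrow the measured spread. For 2 members, Pfkm and Pfkfb3, it reached beyond 1.5-fold. A p that missed the threshold therefore leaves room for modest differences in most of these genes.

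**Figure D1:**
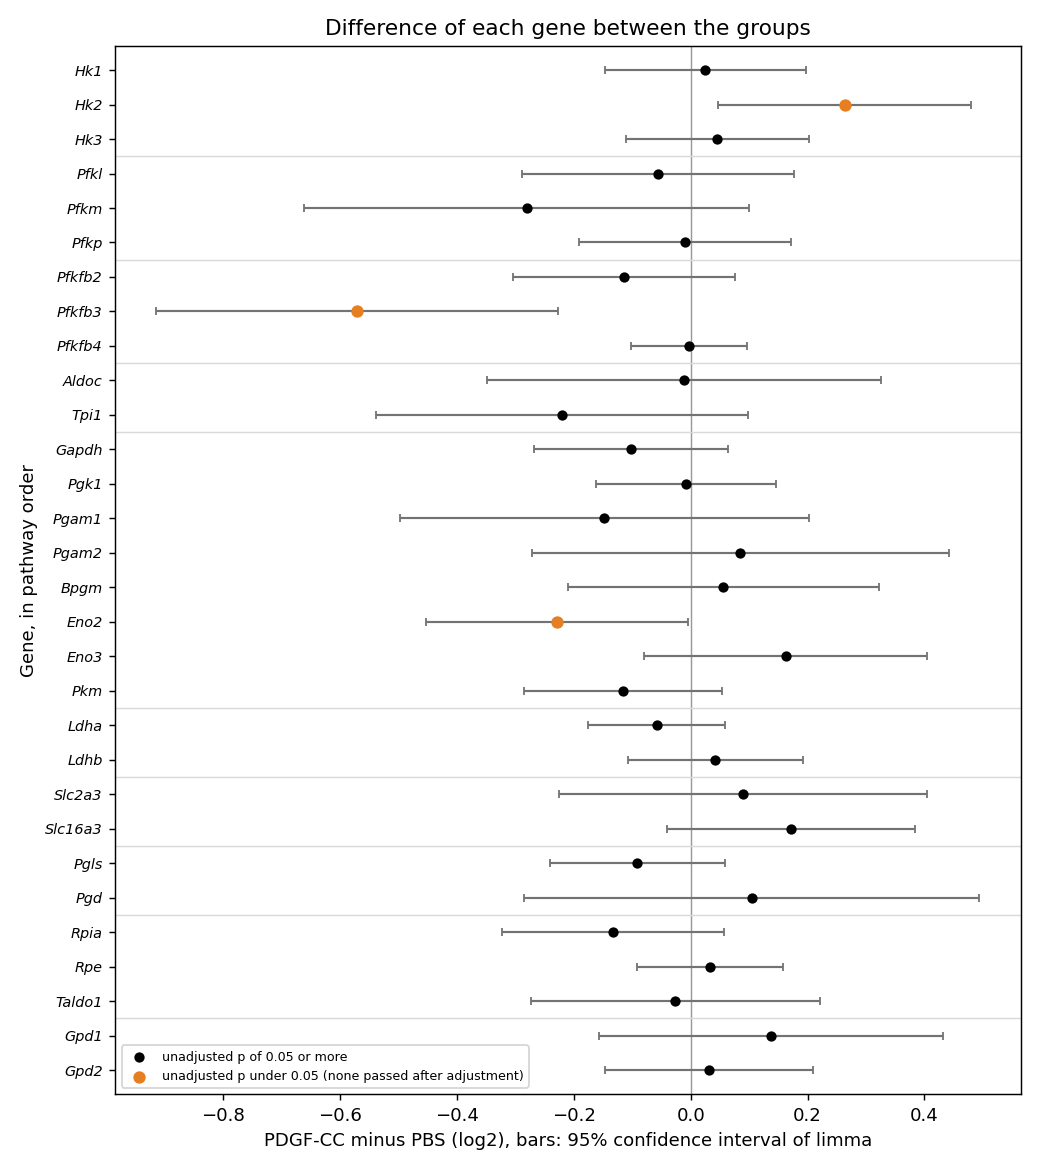
Difference of each measured gene between the 4 PDGF-CC and the 3 PBS arrays (log2), with the 95% confidence interval of limma as bars and grey lines between the steps of the pathway. Hk2 at +0.26, Pfkfb3 at -0.57 and Eno2 at -0.23 had an unadjusted p under 0.05, and none passed after adjustment.

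Hk2 and Pfkfb3, which encode enzymes at the 2 gates of the pathway, differed in opposite directions. Hk2 encodes the inducible hexokinase that binds to mitochondria. Its values were 6.98, 7.02, 6.82 and 6.76 in PDGF-CC arrays 1 to 4 and 6.78, 6.56 and 6.55 in PBS arrays 1 to 3. The groups overlapped at a single point, with PDGF-CC array 4 just below PBS array 1. The difference was +0.26 ± 0.092 (SE, n = 4 and 3), a ratio of 1.2 (adjusted p = 0.769 by limma).

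Pfkfb3 encodes the kinase-dominant PFKFB isoform, which raises fructose 2,6-bisphosphate. Its values were 7.17, 7.51, 7.14 and 7.16 after PDGF-CC and 7.99, 7.94 and 7.51 after PBS. PDGF-CC array 2 and PBS array 3 held the identical deposited value, and the other 3 PDGF-CC arrays were below all PBS arrays. The difference was -0.57 ± 0.15, a ratio of 0.673 with an interval from 0.530 to 0.854 (adjusted p = 0.769 by limma). By unadjusted p Pfkfb3 stood at rank 101 of 15582 genes and Hk2 at rank 369.

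Sample descriptions carry numbers from 1 to 7 across both groups. Among numbers 1 to 4, which were PDGF-CC arrays 1 and 2 and PBS arrays 1 and 2, the difference was +0.33 for Hk2 and -0.62 for Pfkfb3. Among numbers 5 to 7, with a single PBS array, it was +0.23 and -0.37. Leaving out 1 array at a time gave +0.22 to +0.34 for Hk2 and -0.72 to -0.48 for Pfkfb3.

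The upstream sequences of these genes are shown, with that of Eno2, the other member under the unadjusted threshold. The set contains many known targets of hypoxia-inducible factors and carbohydrate response factors, whose binding sites can hold the letters ACGTG. Other forms of these sites were not searched. Each window is the 250 bases before a RefSeq start site (GRCm38.p6), read 5′ to 3′ on the gene's strand, the minus strand in every case, and capitals mark ACGTG on either strand.
Hk2, chr6:82774455-82774704: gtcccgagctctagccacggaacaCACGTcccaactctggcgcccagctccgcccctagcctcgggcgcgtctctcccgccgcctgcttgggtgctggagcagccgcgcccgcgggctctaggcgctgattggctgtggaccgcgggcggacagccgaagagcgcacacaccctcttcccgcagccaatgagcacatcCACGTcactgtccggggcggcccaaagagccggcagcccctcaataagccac
Pfkfb3, chr2:11502091-11502340: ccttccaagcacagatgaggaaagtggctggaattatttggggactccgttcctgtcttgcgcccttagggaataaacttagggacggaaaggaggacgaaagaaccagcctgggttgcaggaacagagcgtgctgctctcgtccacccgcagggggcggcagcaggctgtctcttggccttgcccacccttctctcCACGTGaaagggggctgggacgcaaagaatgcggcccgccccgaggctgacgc
Pfkfb3, chr2:11553930-11554179: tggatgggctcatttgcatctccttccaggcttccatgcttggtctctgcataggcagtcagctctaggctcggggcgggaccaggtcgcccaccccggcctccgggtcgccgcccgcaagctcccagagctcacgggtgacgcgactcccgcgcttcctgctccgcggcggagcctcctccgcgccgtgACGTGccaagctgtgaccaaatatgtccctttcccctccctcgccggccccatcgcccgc
Eno2, chr6:124769674-124769923: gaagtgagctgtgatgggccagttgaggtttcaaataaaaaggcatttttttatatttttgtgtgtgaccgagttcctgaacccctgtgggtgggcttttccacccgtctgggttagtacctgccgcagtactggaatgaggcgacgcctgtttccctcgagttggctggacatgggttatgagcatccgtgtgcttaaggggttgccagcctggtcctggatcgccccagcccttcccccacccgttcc

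The Hk2 window held ACGTG at 2 places, both on the other strand. The Pfkfb3 window at the more distal gene start held it at 1 place, and the other Pfkfb3 window held the palindrome CACGTG, which reads as ACGTG on both strands and was counted as 2 matches. The Eno2 window held none. Of the measured members 28 had a window, and Slc2a3 and Gpd1 had none in the table used. In 11 of the 28 (39.3%) at least 1 window held ACGTG, among them Ldha, Pgk1, Pkm and Slc16a3, against 18.5% of 27025 genes in the table. GGGCGG, the core of the GC box bound by SP factors, stood in windows of 18 members (64.3%), against 35.4% of all genes. Counted by window, ACGTG stood in 35% of 40 member windows against 16.6% of all windows, and GGGCGG in 47.5% against 32.7%. These are matches of letters and say nothing of binding, and genes with ACGTG were found on both sides of 0, as Hk2 and Pfkfb3 show.

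Among the other hexokinases, Hk1, the housekeeping isoform, differed by +0.03 ± 0.073, and Hk3, an isoform of myeloid cells, by +0.05 ± 0.066. Hk3 held 1 value in 4 of the 7 arrays. Exact repeats of this kind were common in the deposited table. In 14 of 30 members at least 3 arrays shared a value, as in 37.4% of all probe sets tested, and 11 members had 7 distinct values. Pfkfb4 and Rpe each held the same value in 6 arrays. Such repeats narrow the measured spread of a gene, and their origin was not tested.

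The 3 phosphofructokinase genes were all negative, Pfkm by more than the others. Pfkl, the liver-type subunit, read 7.13, 7.34, 7.36 and 7.52 after PDGF-CC and 7.35, 7.32 and 7.51 after PBS, so that the groups overlapped across their range. Its difference was -0.06 ± 0.099. Pfkp, the platelet-type subunit, differed by -0.01 ± 0.077. Pfkm, the muscle-type subunit, had values of 5.12 to 5.71 after PDGF-CC and 5.44 to 5.93 after PBS, a difference of -0.28 ± 0.16 that ran from -0.17 without PBS array 1 to -0.41 without PBS array 2. Among the PFKFB genes besides Pfkfb3, Pfkfb2, the isoform typical of heart, differed by -0.12 ± 0.080, or by -0.05 without PDGF-CC array 1. Pfkfb4 differed by -0.002 ± 0.042.

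The measured genes of the aldolase and triose isomerase steps were both negative, Aldoc by little. Aldoc encodes the brain aldolase, abundant in astrocytes. It read 8.73, 8.93, 9.34 and 9.02 after PDGF-CC and 9.14, 8.87 and 9.05 after PBS, and the 4 PDGF-CC arrays spanned the whole PBS range. Its difference was -0.01 ± 0.14, beside an astrocyte marker list that also overlapped (6.96 to 7.21 after PDGF-CC and 7.03 to 7.22 after PBS, as means of 7 markers). Tpi1, triose phosphate isomerase, differed by -0.22 ± 0.13, and PBS array 3 alone was high, at 8.84 against 8.12 to 8.46 in the other 6 arrays. Without that array the difference was -0.07.

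Gapdh, glyceraldehyde 3-phosphate dehydrogenase, is used as a reference gene in many assays. Its values were 10.89, 11.01, 11.07 and 11.09 after PDGF-CC and 11.07, 11.07 and 11.21 after PBS, a difference of -0.10 ± 0.070 with the groups overlapping, and -0.05 without PBS array 3. A second Gapdh probe set above the filter was also at -0.10 (± 0.074), and the remaining one was below the filter at -0.30. Pgk1, phosphoglycerate kinase, differed by -0.01 ± 0.065, an interval from -0.16 to +0.15.

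Pgam1, the ubiquitous phosphoglycerate mutase, differed by -0.15 ± 0.15 on its brightest probe set and by -0.27 ± 0.27 on the other. Leaving out PDGF-CC array 3 took the former to -0.24, and leaving out array 2 took it to -0.05. Pgam2, the muscle isoform, differed by +0.09 ± 0.15, with PDGF-CC array 2 highest at 5.62, and by -0.03 without that array. Eno3, the muscle enolase, read 6.43 in 5 arrays, 6.68 in PDGF-CC array 2 and 6.13 in PBS array 2, and differed by +0.16 ± 0.10, or by +0.06 without PBS array 2. Beside these muscle isoforms, the mean of 6 skeletal muscle markers was 4.38 to 4.59 after PDGF-CC and 4.20 to 4.37 after PBS, with 4 of 6 positive. Myh4 and Myh1 were below the filter, and without them the groups overlapped, at 4.89 to 5.11 and 4.78 to 5.02. The part of such markers in the result was not tested. Bpgm, the red cell enzyme that makes 2,3-bisphosphoglycerate, differed by +0.06 ± 0.11. Of 6 erythroid markers only Slc4a1 was measured, at 5.09 to 5.35 after PDGF-CC and 5.08 to 5.09 after PBS.

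Eno2, the neuronal enolase, was the second member with a lower level at an unadjusted p under 0.05. Its values were 4.09, 4.08, 4.18 and 4.18 after PDGF-CC and 4.18, 4.58 and 4.33 after PBS. PDGF-CC arrays 3 and 4 and PBS array 1 held the same value, and no PDGF-CC array was above it. The difference was -0.23 ± 0.095 (adjusted p = 0.769 by limma) and shrank to -0.12 without PBS array 2. The gene was dim. Its mean after PDGF-CC, 4.14, was itself below the filter, which was 4.145 for the mean of all arrays. The mean of 8 neuronal markers ran the other way, at 4.93 to 5.08 in PDGF-CC arrays and 4.78 to 4.90 in PBS arrays, with 7 of 8 positive. Tubb3 and Nefl were below the filter, and without them the groups overlapped, at 5.26 to 5.40 and 5.21 to 5.27. The part of these markers in the value of Eno2 was not tested.

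The last steps were represented by Pkm, pyruvate kinase, and by the lactate dehydrogenase genes. Pkm read 9.69, 9.62, 9.55 and 9.69 after PDGF-CC and 9.68, 9.69 and 9.89 after PBS. PBS array 3 stood highest, and the difference was -0.12 ± 0.072, or -0.05 without that array. Ldha, the subunit that favours lactate formation, read 4.75, 4.81, 4.86 and 4.79 after PDGF-CC and 4.88, 4.82 and 4.88 after PBS, a difference of -0.06 ± 0.050. Its probe set was dim, not far above the filter. Ldhb, the subunit that favours pyruvate formation, differed by +0.04 ± 0.063.

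Both transporter genes were positive. Slc2a3, which encodes GLUT3, the main glucose transporter of neurons, read 4.96, 4.70, 4.87 and 4.48 after PDGF-CC and 4.77, 4.76 and 4.46 after PBS. The lowest array of each group nearly coincided, and the difference was +0.09 ± 0.13. Slc16a3, which encodes the lactate exporter MCT4, differed by +0.17 ± 0.090, or by +0.10 without PBS array 3. Its lowest PDGF-CC value equalled the highest PBS value, 5.50, and PDGF-CC array 3 stood at 5.79.

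**Figure D2:**
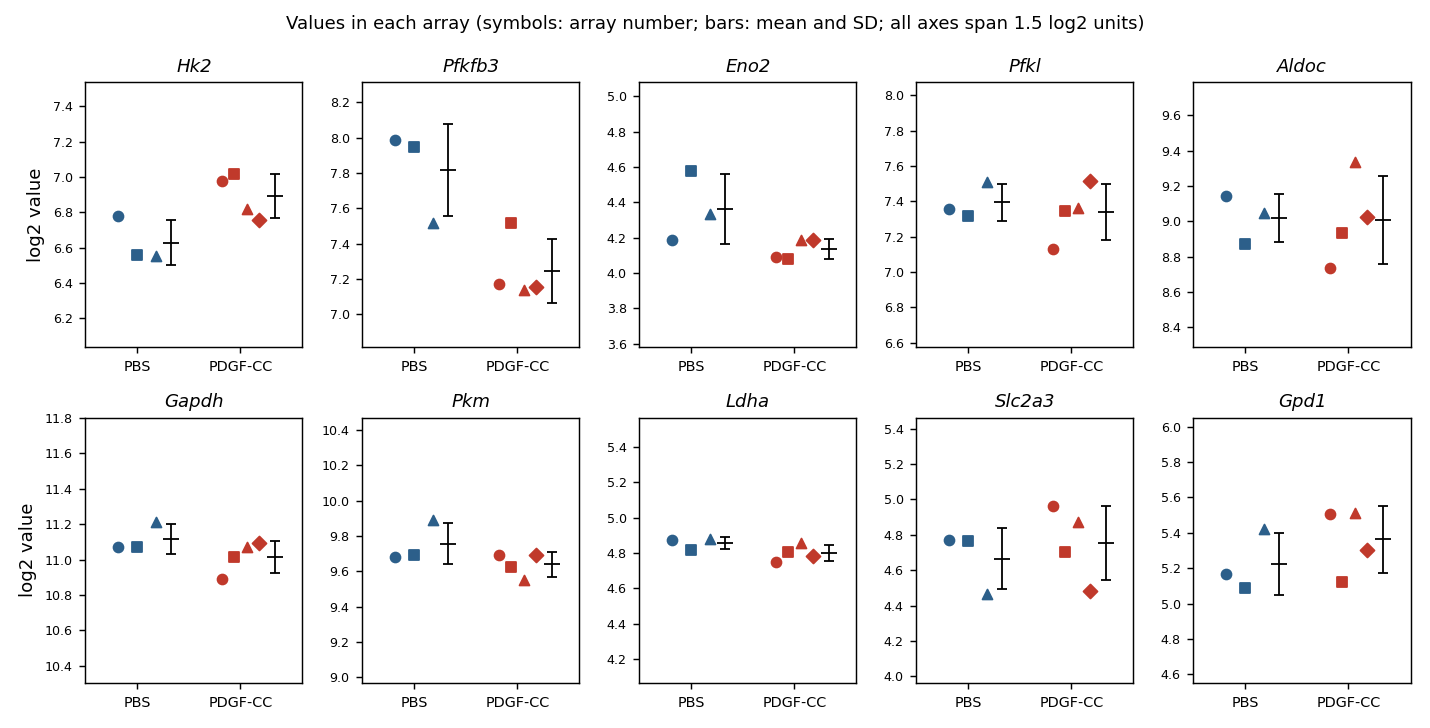
Log2 values of 10 genes in each array, with PBS in blue, PDGF-CC in red, the array number given by the symbol (circle 1, square 2, triangle 3, diamond 4) and the mean with its SD beside the points. Every vertical axis spans the same range of 1.5, and the groups touch or overlap in every gene shown. For Pfkfb3 and Eno2 they meet only at a shared value.

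The differences of all 5 measured pentose phosphate genes were within 0.2 of 0, as were those of 85.4% of all genes tested. G6pdx and Tkt, also of this pathway, were not analysed here. The confidence intervals of Pgls, Pgd, Rpia and Taldo1 reached farther from 0 than 0.2, that of Pgd from -0.29 to +0.49. The interval of Rpe did not. In the oxidative branch, Pgls, 6-phosphogluconolactonase, differed by -0.09 ± 0.063 and by -0.09 ± 0.096 on a second probe set, and the former was at -0.03 without PBS array 2. Pgd, 6-phosphogluconate dehydrogenase, differed by +0.10 ± 0.17. Its PBS arrays were spread from 7.26 to 8.02, while the PDGF-CC arrays lay between 7.73 and 7.85, and the difference ran from -0.11 without PBS array 2 to +0.27 without PBS array 1. In the non-oxidative branch, Rpia, ribose 5-phosphate isomerase, differed by -0.13 ± 0.081, and ran from -0.21 without PBS array 1 to -0.05 without PBS array 2. Rpe, ribulose phosphate epimerase, differed by +0.03 ± 0.053, all of it from PDGF-CC array 3, and Taldo1, transaldolase, by -0.03 ± 0.11.

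The glycerol 3-phosphate dehydrogenases carry electrons of cytosolic NADH to mitochondria. Gpd1, the cytosolic enzyme, read 5.51, 5.12, 5.51 and 5.30 after PDGF-CC and 5.16, 5.09 and 5.42 after PBS. Arrays of both groups alternated along this range, and the difference was +0.14 ± 0.12, with +0.07 ± 0.058 on a second probe set. It ran from +0.07 without PBS array 2 to +0.24 without PBS array 3. Gpd2, the mitochondrial enzyme, differed by +0.03 ± 0.075.

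**Figure D3:**
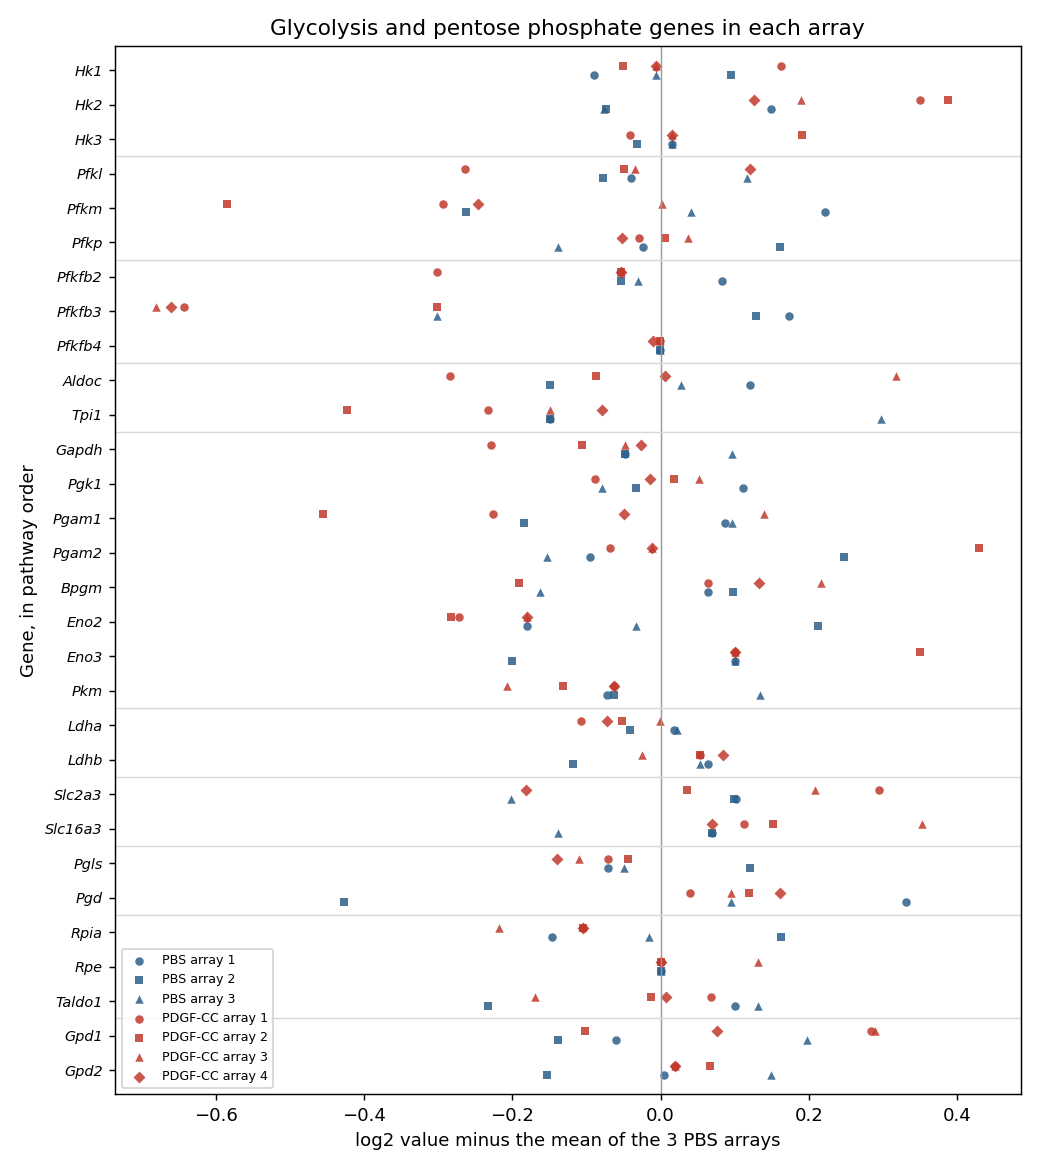
Each measured gene in each array, as the log2 value minus the mean of the PBS arrays, with PBS in blue and PDGF-CC in red and grey lines between the steps of the pathway. Pfkfb3 lies farthest to the left in PDGF-CC arrays 1, 3 and 4, and for many of the other genes the colours are mixed on both sides of 0.

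The arrays differed in how far the members strayed from their own means. The median absolute deviation of the 30 members was 0.11 in PBS array 3, 0.10 in PBS array 2 and 0.083 in PDGF-CC array 1, and 0.031 in PDGF-CC array 4. The mean deviation was between -0.04 and +0.05 in every array, so that no array was high or low in the set as a whole. The median residual SD was 0.125 for the members and 0.127 for all genes tested.

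Genes around the pathway were listed by function, with earlier results of these data known. They included Pdk4, with a larger difference than any member, and several genes with differences beyond 0.3. None passed the adjusted threshold. Of 11 genes that regulate glycolytic genes, 0 were higher and 2 lower at an unadjusted p under 0.05. Of all probe sets tested, 2.63% were higher and 3.41% lower at that threshold. Every PDGF-CC array lay above every PBS array in 1.80% of probe sets, and below in 2.50%. The genes named from these lists were those of smallest p, which makes separated groups more likely among them. Txnip encodes a glucose-induced protein that restrains glucose uptake, and read 10.61, 10.80, 10.53 and 10.73 after PDGF-CC and 11.32, 11.11 and 11.13 after PBS. Every PDGF-CC array was below every PBS array, and the difference was -0.52 ± 0.086 (adjusted p = 0.623 by limma). It was -0.51 within description numbers 1 to 4 and -0.50 within 5 to 7. Arrdc4, its relative with the same glucose-sensing regulators, was likewise lower in every PDGF-CC array, at -0.23 ± 0.069. Mlxipl, which encodes the carbohydrate response factor ChREBP, differed by +0.19 ± 0.099, and by +0.08 without PBS array 2.

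Of 16 genes of glucose and lactate transport and of pyruvate entry into mitochondria, 0 were higher and 1 lower at an unadjusted p under 0.05. That gene was Pdk4, an inhibitor of pyruvate dehydrogenase, at -0.89 ± 0.18 with all PDGF-CC arrays below all PBS arrays. Its difference was -1.11 within description numbers 1 to 4 and -0.44 within 5 to 7. Slc2a1, the GLUT1 gene through which glucose crosses the blood-brain barrier, differed by -0.16 ± 0.089, and by -0.09 without PDGF-CC array 1, while Slc16a7, the MCT2 gene, differed by +0.13 ± 0.069. Slc16a7 was at +0.07 without PBS array 2.

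Of 14 tested genes of gluconeogenesis and glycogen turnover, 2 were lower and 0 higher at that threshold. Pgm2, which acts on ribose and glucose phosphates, differed by -0.32 ± 0.084 and Gyg, glycogenin, the primer of glycogen, by -0.21 ± 0.080. In both, every PDGF-CC array was below every PBS array, as in 2.50% of all probe sets tested. Fbp2, the muscle fructose bisphosphatase, was dim and differed by +0.12 ± 0.065. Its PBS mean, 4.14, was itself below the filter of 4.145, so it was above the filter only through its PDGF-CC arrays. The difference was +0.06 without PBS array 1 and +0.18 without PBS array 2. Of 11 tested isoforms outside the set none reached that threshold. H6pd, the enzyme that starts the pentose phosphate pathway in the endoplasmic reticulum, was higher in every PDGF-CC array at +0.15 ± 0.070. Galm, galactose mutarotase, was at -0.18 ± 0.10, or -0.11 without PDGF-CC array 3. Gapdhs, the sperm isoform, was at -0.22 ± 0.16, or -0.03 without PBS array 3.

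Of 13 hypoxia targets outside glycolysis, 12 were negative and 4 were lower at an unadjusted p under 0.05. Of all probe sets tested, 51.6% were negative and 3.41% lower at that threshold. The median of the list was -0.16, against -0.01 for the members. Kdm3a, a histone demethylase, was at -0.33 ± 0.071 with the groups apart, Bnip3, a mitophagy receptor, at -0.43 ± 0.14, and Higd1a, a mitochondrial protein, at -0.29 ± 0.11. Bnip3 was at -0.69 within description numbers 1 to 4 and at -0.06 within 5 to 7, and Higd1a was at -0.17 without PBS array 2. The negative lean of hypoxia genes was known from earlier results of these data, and the difference between this list and the members was not tested. Slc2a1, Pdk1 and Egln3 stood in this list and in another.

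**Figure D4:**
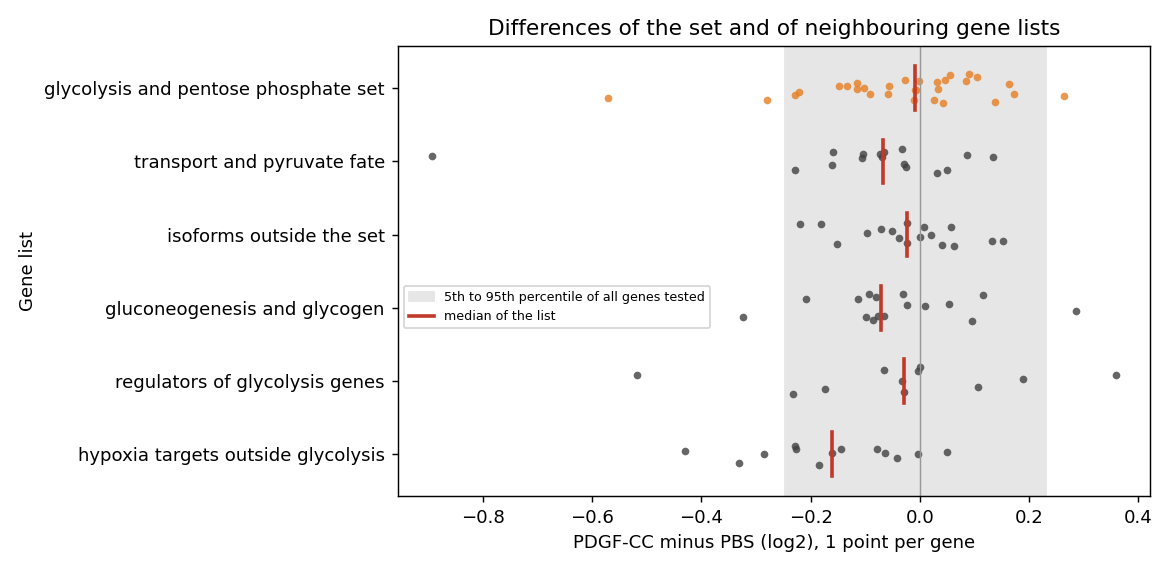
Differences (log2) of the 30 members in orange and of genes in 5 lists of neighbouring functions in grey, with 1 point per gene, placed at random heights within a row. The red bar is the median of each list and the shaded band, from -0.25 to +0.23, holds the middle of all genes tested between the 5th and 95th percentiles.

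Markers of vessel cells and of other cells were examined. All 10 endothelial and all 8 pericyte markers were above the filter in the mean of the arrays. So were all measured markers of astrocytes (7), oligodendrocytes (5), microglia (7) and choroid plexus (7). Passing the filter therefore does not single out vessel cells. The endothelial mean was 10.73 to 10.85 after PDGF-CC and 10.74 to 10.93 after PBS. The pericyte mean was 8.87 to 9.27 and 9.12 to 9.34. Endothelial markers were negative in 7 of 10 and pericyte markers in 7 of 8, with mean differences of -0.03 and -0.17. Smooth muscle markers were positive in 6 of 6, at +0.15, and perivascular fibroblast markers negative in 5 of 6, at -0.18. Oligodendrocyte markers were positive in 5 of 5 measured, at +0.16. With all arrays the groups overlapped in each of these lists. No cell type marker passed the adjusted threshold, and the smallest adjusted p was 0.769 by limma. The mean of 7 measured choroid plexus markers was 6.49 to 7.34 in PDGF-CC arrays and 7.51 to 7.85 in PBS arrays, with all 7 markers negative. That of 7 microglial markers was 9.94 to 9.97 and 9.43 to 9.89, with 6 positive, and PBS array 2 was the low one. Without it the microglial difference was +0.08 in place of +0.23. Neutrophil and monocyte markers overlapped widely, at 4.89 to 5.89 and 5.20 to 6.13, with Ngp and Camp below the filter. In bulk samples, fewer cells of a type and less RNA per cell cannot be told apart, and the part of these cells in the values of Pfkfb3, Hk2, Hk3 or other members was not tested.

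**Figure D5:**
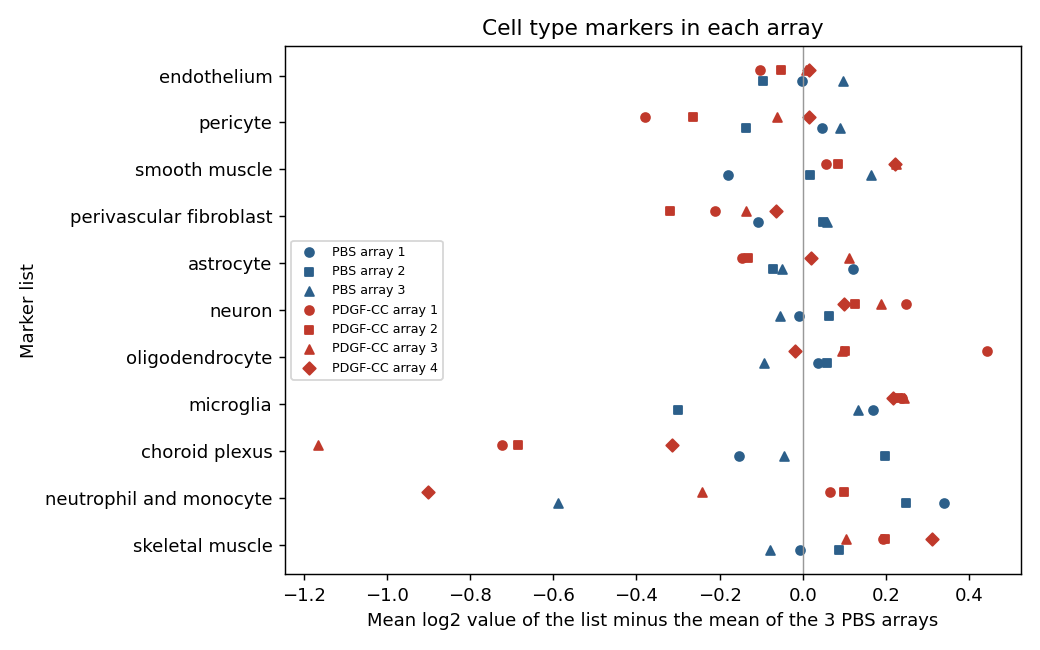
Mean log2 value of each cell type marker list in each array, minus the mean of the PBS arrays, with PBS in blue and PDGF-CC in red. The groups do not overlap for choroid plexus markers, which lie lower after PDGF-CC, nor for microglial markers, which lie higher, by little without PBS array 2. Those of neuronal and skeletal muscle markers, also higher here, overlap once markers below the filter are left out.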

How the data were processed

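RNA from 4 PDGF-CC and 3 PBS samples was measured on 1 array each. The table deposited by the authors holds log2 values, judged from their range and from array distributions that nearly coincide. The submitters' processing notes name Affymetrix Expression Console, RMA and limma, giving neither version nor order. If RMA was applied across the arrays, it removed any difference in overall RNA level. The genome build and the settings of these steps are unknown here. An array has no read depth, so precision rests on how many arrays there were.

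Of 33793 probe sets, 25335 had a gene symbol, 23521 of them a single one, and no gene was named from a probe set with several. Those with a symbol were tested where their mean exceeded the 30th percentile, a log2 value of 4.145, which left 17734. The 2 groups were compared with limma 3.58.1 (lmFit, eBayes, R 4.3.3) with no covariate, 2-sided, and p-values were adjusted by Benjamini-Hochberg over all tested probe sets. The fit was tested on simulated data.

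Members, lists and motifs were chosen with earlier results of these data known. Array values were given for members with an unadjusted p under 0.05 or separated groups and for Hk2, Pfkfb3, Pfkl, Aldoc, Gapdh, Pkm, Ldha, Slc2a3, G6pdx (not analysed here) and Gpd1, and the other members by their differences. Up to 3 genes of smallest p were named per neighbouring list. The hypoxia list symbol Ero1l was read as Ero1a. Upstream sequences came from RefSeq (GRCm38.p6). Figures were drawn with matplotlib 3.10.9. Other filters, normalizations, priors, weights, blocks, probe set means and left-out arrays were tried, 17 alternatives in all. Marker lists were also recomputed in 2 ways chosen after the values were seen.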

Additional observations from a re-analysis of the deposited data

Results flagged for a closer look

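Among the 30 members, 8 had 1 PDGF-CC array apart from the other 3 by more than the 95% limit of Dixon's test. Chance gives about 1 in 20 for values without repeats, and among all probe sets tested 20.3% had such an array. In 6 of the 8 the other 3 arrays held exactly the same value. PDGF-CC array 1 was lowest for Pfkfb2 (6.527 against 6.776). PDGF-CC array 4 was lowest for Pfkfb4 (5.08 against 5.089). PDGF-CC array 3 was lowest for Rpia (6.579 against 6.693) and highest for Rpe (6.836 against 6.705). PDGF-CC array 2 was highest for Eno3 (6.677 against 6.427), for Gpd2 (8.558 against 8.511), for Pgam2 (5.617 against 5.119 to 5.176) and for Pfkfb3 (7.514 against 7.136 to 7.173). Without that array Pfkfb3 lay below all PBS arrays.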

How the results depend on the processing

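No member passed the adjusted threshold under any of the 17 alternatives, and the smallest adjusted p of a member was 0.358 by limma. The sign did not turn for 16 members, Hk2, Pfkfb3 and Eno2 among them, though Rpe was at 0 without PDGF-CC array 3. The median difference ran from -0.0385 without PBS array 2 to 0.0112 after repeated quantile normalization, so its sign was not stable. Over the whole table, 3 probe sets were called lower with the 50th percentile filter, with arrays centred, with a trended and robust prior and with a gene's probe sets averaged, and 1 with quantile normalization and without PDGF-CC array 3. None was a member. The stricter filter kept 24 members.

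Members whose groups did not overlap, 0 of 30 as deposited against 4.3% of all probe sets, numbered 1 with arrays centred on their median (Eno3 higher, 8.76% of probe sets) and 3 with quantile normalization (Eno2 lower, Eno3 and Slc16a3 higher, 8.75%). Both settings part equal values. With 1 array left out they numbered 0 to 5, and fewer arrays make separation easier. Without PBS array 2 there were 5 (Pfkm, Pfkfb2, Ldha and Taldo1 lower, Pgam2 higher, 12.3% of probe sets), without PBS array 1 there were 3 (Hk2 higher, Eno2 and Rpia lower, 12.4%) and without PBS array 3 there were 2 (Pfkfb3 lower, Gpd2 higher, 11.9%). Without PDGF-CC array 4 there were 2 (Hk2 and Slc16a3 higher, 7.87%), and 1 each without PDGF-CC array 2 (Pfkfb3 lower, 6.23%) and array 3 (Ldha lower, 8.26%). Fits that change only the prior, weights, block or covariate leave this count as it is.

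Marker lists without markers below the filter, or without 1 array, were examined after the values were seen. With 1 array left out, the endothelial difference ran from -0.0821 to 0.0149 and the astrocyte difference from -0.0862 to 0.0235. Over markers above the filter, the neuronal difference was 0.0807 in place of 0.1647, and that of skeletal muscle 0.0783 in place of 0.2012.

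Small negative differences turned positive in 5 genes. With arrays centred, Pfkp was at 0.0003, Pfkfb4 at 0.0075 and Pgk1 at 0.0020. With quantile normalization, Pfkp was at 0.0073, Aldoc at 0.0154 and Pgk1 at 0.0152. With array weights, Pfkp was at 0.0089 and Aldoc at 0.0057. With the description number as a covariate, Pfkl was at 0.0059 and Aldoc at 0.0471. With numbers 1 to 4 against 5 to 7 as a block, Pfkp was at 0.0037. The cause was not tested.

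With 1 array left out, differences that crossed 0 ran from -0.0206 to 0.0724 for Hk1, -0.0033 to 0.0743 for Hk3, -0.1158 to 0.0123 for Pfkl, -0.0785 to 0.0712 for Pfkp, -0.1216 to 0.0792 for Aldoc, -0.0471 to 0.0478 for Pgk1 and -0.0301 to 0.2089 for Pgam2. They ran from -0.0251 to 0.1381 for Bpgm, -0.0172 to 0.0737 for Ldhb, -0.0113 to 0.1796 for Slc2a3, -0.1090 to 0.2699 for Pgd, -0.1425 to 0.0391 for Taldo1 and -0.0460 to 0.1054 for Gpd2.

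Same-numbered samples of both groups correlated in their deviations at 0.163, 0.107 and 0.0844 over probe sets. PBS array 3 correlated best with PDGF-CC array 4 (0.320), so the numbers were not taken as pairs. Between the groups, arrays within description numbers 1 to 4 correlated at 0.0403 to 0.163, and those within 5 to 7 at 0.0844 and 0.320. Every correlation across this split was negative, from -0.224 to -0.00746. Deviations were taken from each group's own mean, so positive correlations within the split have to be balanced by negative ones. The negative sign is therefore in part built in and is not separate evidence. The main test left the split out. With the split as a block, 0 members were called. With the replicate block, 0 members were called, the median difference was -0.0029 and Pfkp was at 0.0046.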
